A study of Mus musculus with 46 samples.

Results

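The 100 genes described here were those with the highest level relative to embryonic stem cells in mouse fibroblasts carrying the NanogBiD fusion at day 5 of reprogramming. They were taken from 493 candidate genes among the 37108 genes measured by RNA-seq. A candidate had an FPKM of at least 5 in the mouse embryonic stem cell (mES) library and under 1 in both mouse embryonic fibroblast (MEF) libraries, where FPKM is the number of fragments scaled by transcript length and by sequencing depth. Each candidate was ranked by its share of the mES level, the mean log2(FPKM + 1) of the 2 NanogBiD libraries of day 5 (D5) divided by that of mES, and the 100 with the highest share were kept. They were thus chosen by measured values: the D5 levels with NanogBiD and the MEF and mES levels selected the genes, and these are given below as description, with no test.

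The cells were MEFs from E13.5 embryos of a cross between mice carrying the Oct4-GFP (OG2) reporter and 129 mice. They were infected with pMXs retroviral vectors for Oct4 together with either NanogBiD, in which the N-terminal part of SS18 that binds the BAF subunit BRG1 is fused to the N-terminus of Nanog (labelled NanogN70), or native Nanog (NanogWT). Both combinations thus carried an Oct4 vector and a Nanog vector, and D0 was set at the end of infection, when the vectors were already expressed. Both were grown in iCD3 medium up to D7 and in N2B27 with 2i and LIF after that, so a change after D7 cannot be told apart from the change of medium. The time course held 31 libraries of 8 days, from D0, D1 and D3 through D5 and D7 to D8, D10 and D12, with 2 per combination and day except for 1 NanogBiD library at D8. The same study held 2 MEF libraries, 1 mES library and 12 libraries of iPSC lines, 6 from each combination. By its label the mES library came from OG2 cells, at a later passage than the MEF and iPSC libraries. No counts were analysed here, so absolute depth is unknown. The step between the lowest FPKM values put the NanogWT libraries of D8 to D12 at 1.85 to 3.17 times the depth of the first NanogBiD library of D5, against 0.809 to 1.10 for all NanogBiD libraries and 0.868 to 1.05 for NanogWT libraries of D0 to D7, and depth cannot be told apart from combination and day at D8 to D12.

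Embryonic stem cells hold their state through a network of transcription factors around Oct4, Sox2 and Nanog, which act with chromatin remodelers of the BAF (SWI/SNF) family on enhancers that are closed in fibroblasts. The genes around this network come on in steps during reprogramming. Some of them, such as those for SoxB1 factors, POU factors and neurofilaments, are also used by the epiblast or by neural cells, so a level near that of mES is not by itself a mark of pluripotency.

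Most known pluripotency genes were not among the 100. Lists of pluripotency transcription factors, pluripotency effectors and Nodal pathway genes held 114 names, of which 54 were candidates and 10 were among the 100 genes. Among these 10 were Pou5f1, Nanog, Sox3, Pou2f3, Tfcp2l1, Gbx2, Upp1, Lin28a and Tdgf1. The other 44, among them Sall4, Esrrb, Dppa4, Utf1 and Zfp42, stood lower in the ranking. By the rule 100 of all 493 candidates were kept, a share near that of 10 in 54. The values for Pou5f1, the gene for Oct4, and Nanog include reads from the vectors, so they do not measure the endogenous genes. The working name of pluripotency genes thus fits a small share of the group, and the genes are called here the early-reached genes.

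The other lists placed few of the early-reached genes as well, and their counts stand beside the 100 of 493 candidates kept by the rule. The epithelial adhesion list held 3 of them (Dsp, Cldn3 and Dsg2) among 14 candidates, the solute carrier and metabolism list 4 (Slc29a4, Gldc, Upp1 and Aqp3) among 11, the interferon list 1 (Oas1a) among 2, the neural list 1 (Sox1) among 2, and the germline list 0 among 7. RefSeq matched 97 distinct genes for 99 of the 100 names, and 91 of the names were protein-coding, 4 long non-coding, 2 microRNA, 1 antisense and 1 a transcribed pseudogene. The genes lay on 18 autosomes and on the X chromosome, which held 6 of them (6%, against 4.83% of the 393 other candidates). In mES they were expressed at 5.05 to 877 FPKM with a median of 8.66 FPKM, and the other candidates had a median of 9.91 FPKM. Identity was uncertain for 14 of the 100 names, through the vectors, through 2 names for 1 gene (Mfsd13a and Tmem180, Fam241b and 2010107G23Rik), through overlapping genes (Nefm, Nefl and A230070E04Rik, and G630025P09Rik and Tmem102) or through microRNA genes too short for this kind of library (Mir6908 and Mir7677). In all, 46 of the 100 overlapped another RefSeq gene.

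The ranking at D5 ran from 2.12 of the mES level for Elovl7, an elongase of long-chain fatty acids, to 0.490 for Aqp3, a water and glycerol channel. At the boundary, Lin28a had a share of 0.5004, 2310043M15Rik 0.498 and Aqp3 0.490, and the next 3 candidates outside it were Cox7a1 at 0.486, Sall4 at 0.486 and Nfe2l3 at 0.481. The boundary therefore cuts through genes of nearly equal values. At D5 the share was at least 1 for 31 of the 100 genes.

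With NanogBiD the early-reached genes were already part-way up at D0. The median share of the mES level was 0.218 at D0, 0.364 at D1, 0.646 at D3, 0.826 at D5, 0.829 at D7, 0.811 at D8, 0.805 at D10 and 0.869 at D12, and it was 0.0870 in MEF. The number of the 100 genes at 0.5 of the mES level or above went from 14 at D0 to 32 at D1, 67 at D3 and 98 at D5, and stayed between 90 and 94 afterwards. From D0 to D3, 66 of the 100 rose by limma (8.95% of the 16842 genes tested rose) and 0 fell (6.06% of all genes), and the median change was 1.51 on the log2 scale against 0.12 for all genes. With quantile normalization 61 of the 100 rose and 0 fell, while over all genes 1136 rose and 1205 fell, in place of 1508 and 1020. A call here is a limma adjusted p under 0.05 with a difference of at least 1 in log2(FPKM + 1), a scale that understates the change of low genes. At an unadjusted p under 0.05, 81 of the 100 were higher at D3 than at D0 and 1 was lower. The choice of the genes by low MEF levels and by their D5 level with NanogBiD sets part of this rise from D0 to D3.

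**Figure D1:**
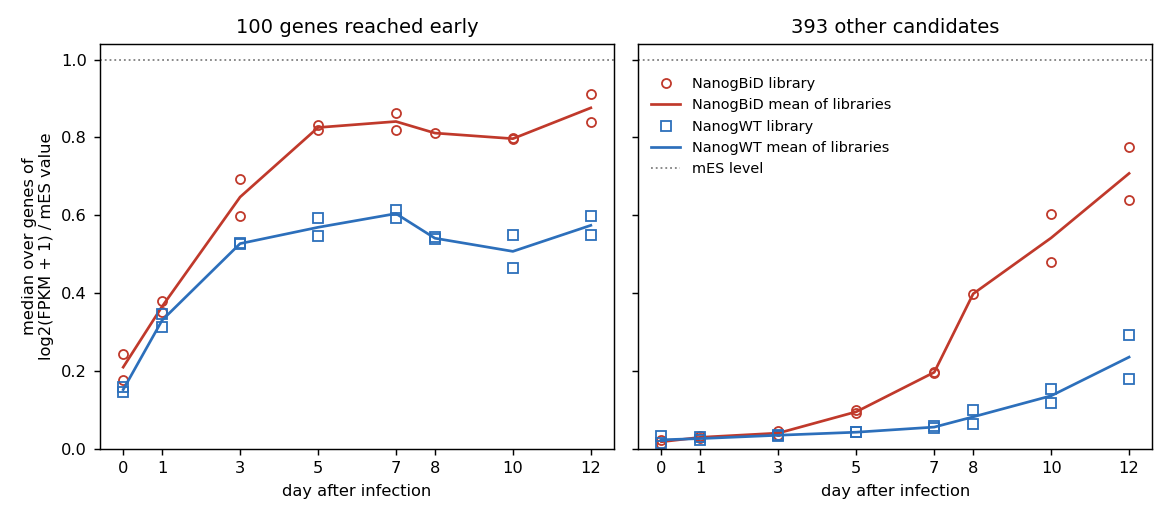
Median share of the mES level, log2(FPKM + 1) divided by the mES value, against the day after infection, over the 100 early-reached genes (left) and the 393 other candidates (right). Each open point is 1 library (circles NanogBiD, squares NanogWT), lines join the means of the libraries of a day and the dotted line is the mES level. The early-reached genes with NanogBiD reached a plateau of 0.805 to 0.869 from D5 on, and the other candidates with NanogBiD rose later, to 0.704 at D12.

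The 393 other candidates followed another course with NanogBiD. Their median share was 0.0926 at D5, 0.187 at D7, 0.398 at D8, 0.538 at D10 and 0.704 at D12. At D7 46 of them stood at 0.5 of the mES level or above and at D12 300 (76.3%). The day with the highest level was D12 for 324 of these 393 genes, whereas among the early-reached genes it was D12 for 40, D5 for 19, D8 for 18 and D7 for 12. The choice of the early-reached genes by their D5 level sets part of this contrast.

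With native Nanog most of the early-reached genes also rose. In NanogWT cells their median share of the mES level was 0.170 at D0, 0.319 at D1, 0.494 at D3, 0.568 at D5, 0.618 at D7, 0.541 at D8, 0.511 at D10 and 0.588 at D12. From D0 to D5, 58 of the 100 rose by limma (10.8% of all genes tested rose) and 1 fell (5.34% of all genes). From D0 to D7, 62 rose (12.0% of all genes) and 1 fell (5.69% of all genes), with a median change of 1.55 on the log2 scale against 0.12 for all genes and 0.08 for the other candidates. With quantile normalization 1545 of all genes rose and 1292 fell from D0 to D7, in place of 2018 and 959, and 59 of the 100 rose and 1 fell. The gene that fell was Cited1 each time, a transcriptional coactivator, which stood at 13.3 and 9.00 FPKM at D0 and at 2.24 and 2.23 FPKM at D7. Its log2 change from D0 to D7 was −1.88 ± 0.28 (SE, limma adjusted p = 1.6e-05), and the NanogWT libraries of the 2 days did not overlap. Among the other candidates 18 of 363 tested rose from D0 to D7 with native Nanog (4.96%). Low MEF levels and a high D5 level with NanogBiD chose the genes, and both combinations carried Oct4 and Nanog vectors. Part of this rise, and of its contrast with the other candidates, is thus set by that choice.

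Apela, which encodes a peptide ligand of the apelin receptor, had the largest rise with native Nanog and was picked for that value. It stood at 1.34 and 1.25 FPKM at D0, at 159 and 161 FPKM at D5 and at 121 and 162 FPKM at D7, so that all D5 and D7 libraries lay above the mES level of 72.8 FPKM. The log2 change from D0 to D5 was 6.13 ± 0.20 (SE, limma adjusted p = 6.3e-14). In NanogBiD cells the Apela level went from 0.695 and 0.808 FPKM at D0 to 45.1 and 54.8 FPKM at D7, below mES. Apela was 1.47 ± 0.20 (SE) lower with NanogBiD at D7 on the log2 scale (limma adjusted p = 1.3e-05).

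In NanogWT cells 19 of the 100 genes did not reach 0.5 of the mES level on any of the 8 days, whereas with NanogBiD none failed to do so, a count that the choice of the genes by their D5 level nearly fixes. At D7 63 of the 100 stood at 0.5 or above with native Nanog and 94 with NanogBiD, and at D12 60 and 94. The heatmap of the genes shows both kinds of row, those with the same colours in both blocks and those that stay dark with native Nanog.

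**Figure D2:**
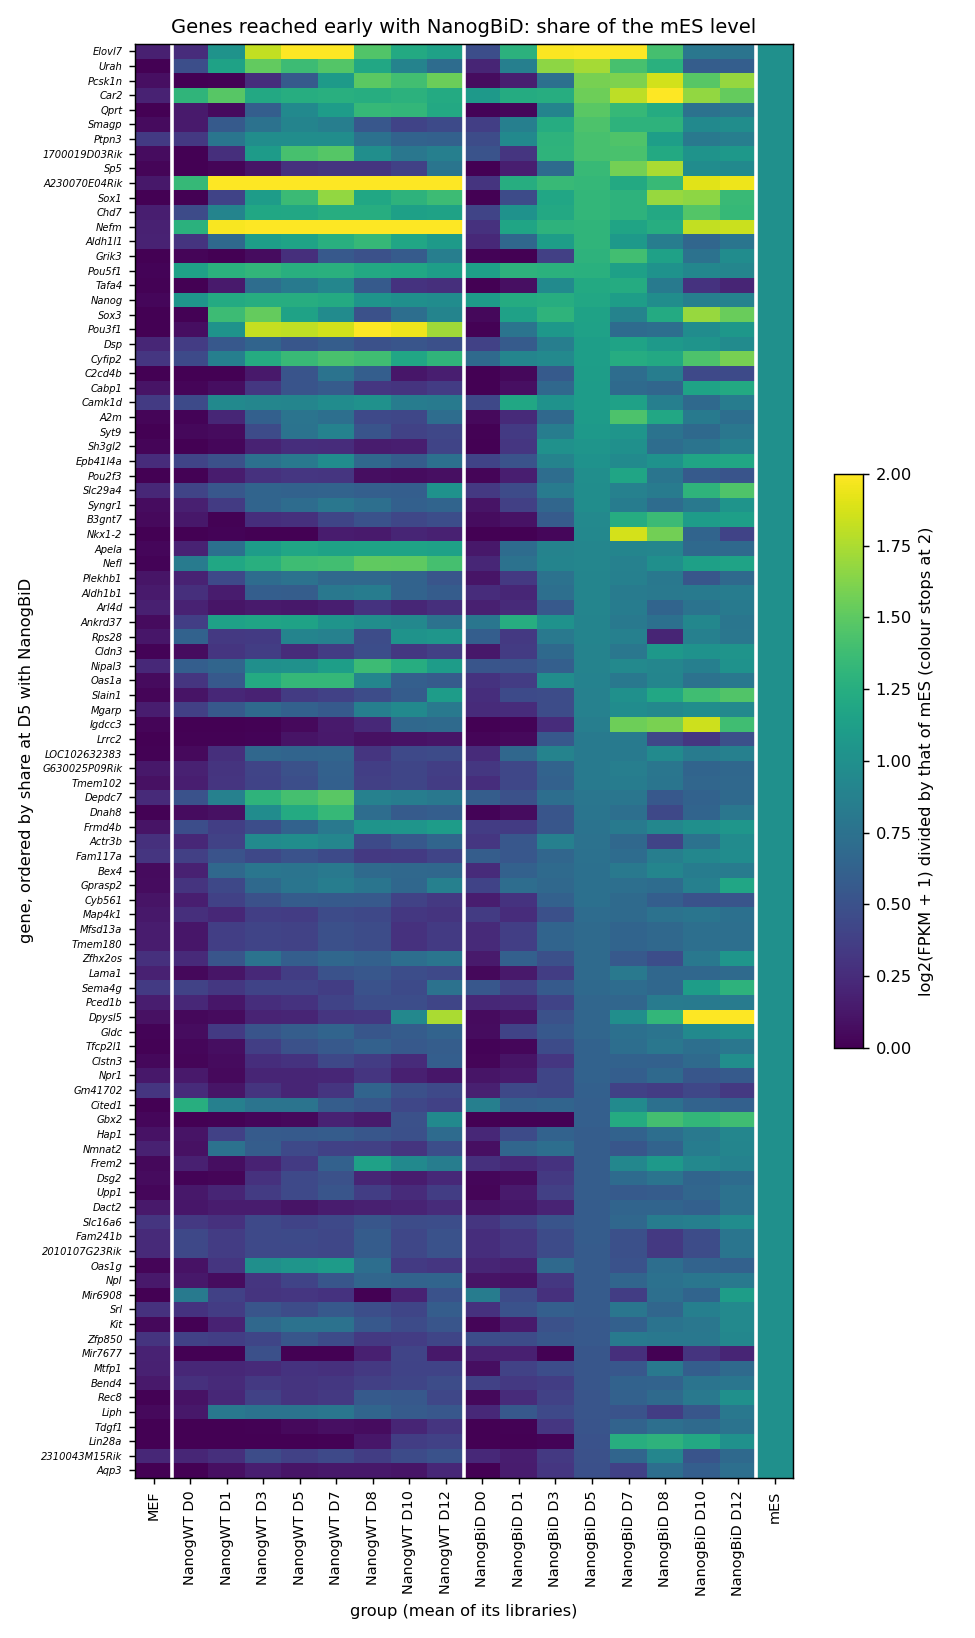
Share of the mES level for the early-reached genes (rows, ordered by the share at D5 with NanogBiD, without 2 genes not reported here) in the mean of each group (columns: MEF, NanogWT from D0 to D12, NanogBiD from D0 to D12, mES). Colour is log2(FPKM + 1) divided by the mES value and stops at 2. Of the 100 genes, 98 were at 0.5 or above with NanogBiD at D5, the day that set the order, and 56 with native Nanog.

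More of the early-reached genes differed between the combinations on later days. At D0, 1 early-reached gene was higher with NanogBiD by limma (0.422% of all genes tested) and 4 were lower (0.338%). At D1, 3 were higher (0.368% of all genes) and 5 lower (0.962%), and at D3 16 were higher (1.25%) and 10 lower (2.45%). The lower genes of D0 and D1 included A230070E04Rik, Nefm and Nefl, which overlap at the same locus. Without the 14 names of uncertain identity, 1 was lower at D0 and 2 at D1. The single gene higher at D0 was 1700019D03Rik, with a difference of 1.44 ± 0.24 (SE, limma adjusted p = 0.0028). The 16 genes at D3 became 7 when the first NanogBiD library of D3 was left out, and a fit to the 4 libraries of a day alone called 0 of the 100 at D0, D1 and D3 (24 higher and 15 lower at an unadjusted p under 0.05 at D3). At D5, given as description, 44 of the 100 were at least 2-fold higher and 10 at least 2-fold lower with NanogBiD, on the scale of FPKM + 1. Over all genes 650 were at least 2-fold higher and 589 at least 2-fold lower. The D5 level with NanogBiD chose the 100, so their higher count is partly set by that choice.

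At D7, the last day in iCD3 medium, 32 of the 100 genes were higher with NanogBiD (5.79% of all genes tested), 12 were lower (4.65%) and 56 were not called. The median difference over the 100 was 0.63 on the log2 scale, against 0.33 for the other candidates and 0.08 for all genes. Among the other candidates 82 of 363 tested were higher at D7 (22.6%) and 4 lower (1.10%). The choice of the genes by their D5 level with NanogBiD favours genes higher with NanogBiD on days near D5, such as D3 and D7. The contrast with the other genes is thus partly set by that choice. None of the 32 higher genes was among the 14 names of uncertain identity, and 7 of the 12 lower ones were outside them. At D10 47 of the 100 were higher (15.4% of all genes) and 12 lower (12.3%), and at D12 47 were higher (13.5%) and 9 lower (9.97%). By D12 297 of the 363 other candidates tested were higher with NanogBiD (81.8%), a larger share than among the early-reached genes. Fibroblast marker genes moved too: the summed FPKM of 12 of them at D7 was 920 to 1142 with NanogBiD and 1760 to 1826 with native Nanog, 5 of the 12 were lower with NanogBiD at D7 and 12 of 12 at D10 and at D12. Markers of some other cell types differed as well. At D12 the summed FPKM of 10 trophoblast markers was 27.4 to 42.1 with NanogBiD and 4.22 to 6.09 with native Nanog (2 of 6 tested were higher), that of 10 neural progenitor markers, Sox1 among them, 111 to 159 and 58.9 to 102 (3 of 9 higher), and that of 8 germ cell markers 22.2 to 32.3 and 1.97 to 5.13 (4 of 5 higher). The sum of 10 endothelium markers was 20.1 to 40.6 and 5.80 to 7.05 (3 of 7 higher and 1 lower), and that of 12 primitive endoderm markers 24.6 to 29.8 and 114 to 126 (4 of 8 lower). In mES the sums were 32.8 for trophoblast, 23.4 for neural progenitor, 25.0 for germ cell, 69.9 for endothelium and 23.7 for primitive endoderm markers. With NanogBiD at D12, the trophoblast and germ cell sums thus spanned the mES sum, and the neural progenitor sum was above it. The part of any of these markers in the differences was not tested, and in these bulk samples fewer cells of a type and less RNA per cell cannot be told apart.

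**Figure D3:**
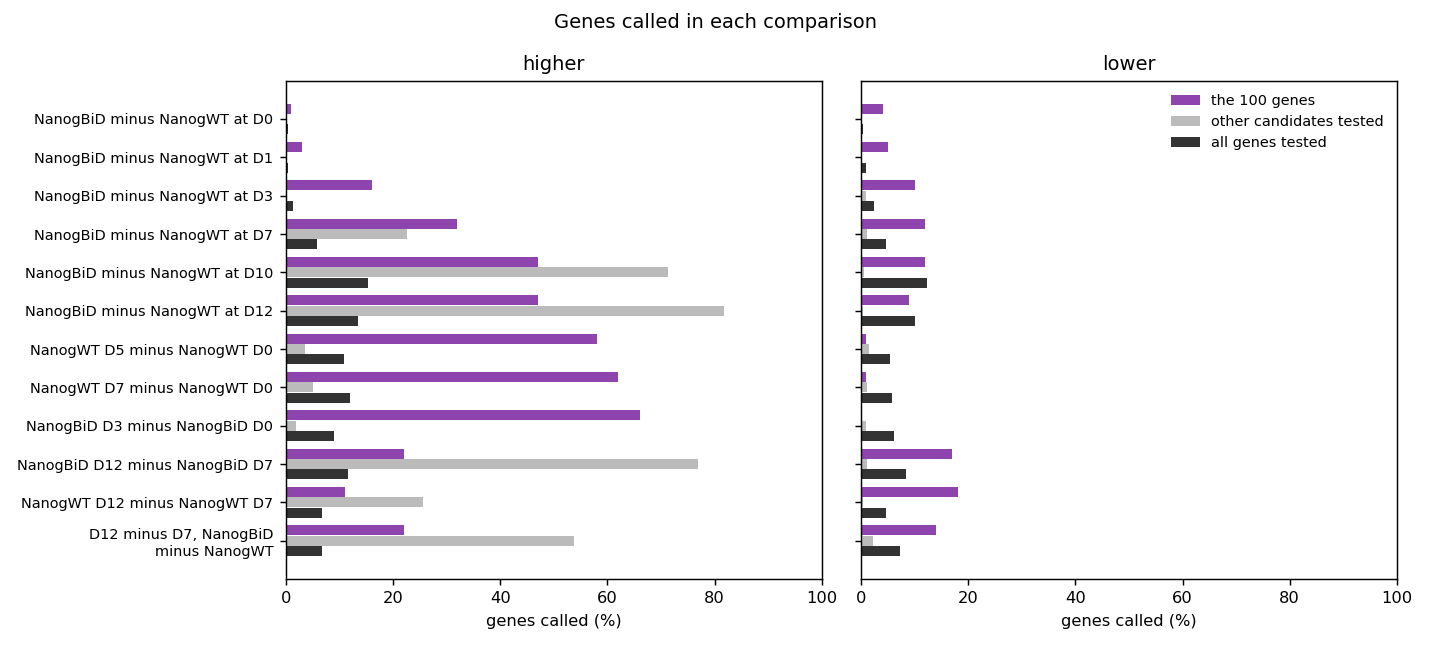
Percentage of genes called higher (left) and lower (right) in each of the 12 limma comparisons, for the 100 early-reached genes, the other candidates tested and all genes tested. At D7 32% of the early-reached genes, 22.6% of the other candidates and 5.79% of all genes were higher with NanogBiD, and 12%, 1.10% and 4.65% were lower. The choice of the genes by their MEF level and their D5 level with NanogBiD sets part of these contrasts.

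Several of the largest differences at D7 were genes of the stem cell network or its signals. Tdgf1 encodes Cripto, the co-receptor through which Nodal signals. It stood at 49.1 and 39.4 FPKM with NanogBiD at D7 and at 0.454 and 0.840 FPKM with native Nanog, against 408 FPKM in mES and a value listed at 0 in both MEF libraries. The NanogBiD and NanogWT libraries did not overlap, and the log2 difference was 4.78 ± 0.34 (SE, limma adjusted p = 3.8e-09). Tdgf1 was already 2.64 ± 0.34 (SE) higher with NanogBiD at D3 (limma adjusted p = 2.5e-05), where the libraries held 7.42 and 4.22 FPKM against 0.127 and 0. At D12 it had 93.3 and 99.2 FPKM with NanogBiD and 3.12 and 8.74 FPKM with native Nanog, and neither combination had reached the mES level. Of the 11 Nodal pathway genes tested, 5 were higher with NanogBiD at D7 and 0 lower (5.79% and 4.65% of all genes), with a median difference of 0.74.

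Lin28a encodes an RNA-binding protein that blocks the maturation of let-7 microRNAs. With native Nanog it was listed at 0 in every library from D0 to D5 and at 0 and 0.0704 FPKM at D7. With NanogBiD it was listed at 0 at D0 and D1, then stood at 2.78 and 2.86 FPKM at D5 and at 27.6 and 28.2 FPKM at D7, above the mES level of 13.6 FPKM. The log2 difference at D7 was 4.80 ± 0.29 (SE, limma adjusted p = 5.9e-10). By D12 the levels were 16.4 and 11.8 FPKM with NanogBiD and 1.23 and 2.52 FPKM with native Nanog, still without overlap.

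Gbx2 encodes a homeobox factor that acts downstream of LIF in stem cells. It followed the same timing, with 0.0291 and 0 FPKM at D3, 3.06 and 4.35 FPKM at D5 and 26.6 and 18.9 FPKM at D7 with NanogBiD. With native Nanog it had 1.01 and 0.330 FPKM at D7 and 10.0 and 10.5 FPKM at D12, close to the mES level of 11.9 FPKM. The log2 difference was 3.84 ± 0.46 (SE) at D7 and 1.63 ± 0.46 at D12 (limma adjusted p = 4.1e-06 and 0.0066). Gbx2 thus stood near the mES level with native Nanog at D12 and above it with NanogBiD.

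Nkx1-2, a homeobox gene of the late epiblast, was high for a short time. It was listed at 0 in all 4 libraries of D0 and in both NanogBiD libraries of D1, stood at 4.39 and 5.68 FPKM at D5 and at 38.9 and 32.5 FPKM at D7 with NanogBiD, and was back at 1.04 and 1.30 FPKM by D12. The mES level was 5.83 FPKM, and no NanogWT library was above 0.885 FPKM. Nkx1-2 thus passed the filter for testing, at least 1 FPKM in at least 2 libraries, only through NanogBiD libraries, those of D5 among them. The difference at D7 was 4.78 ± 0.23 (SE, limma adjusted p = 3.9e-11), and the change from D7 to D12 with NanogBiD was −4.08 ± 0.23 (limma adjusted p = 8.4e-11).

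Igdcc3, a member of the immunoglobulin superfamily, and Sp5, a zinc finger factor known as a target of Wnt signalling, completed the 6 genes with the largest positive differences at D7. Igdcc3 had 30.95 and 33.5 FPKM with NanogBiD and 0.270 and 0.514 FPKM with native Nanog (log2 difference 4.58 ± 0.54, SE, limma adjusted p = 2.7e-06). Sp5 had 57.5 and 32.1 FPKM against 1.38 and 0.836 FPKM (4.39 ± 0.55, SE, limma adjusted p = 6.2e-06). The groups did not overlap for either gene, and both stood above their mES levels of 8.47 and 9.88 FPKM with NanogBiD. Sp5 was at 6.46 and 11.6 FPKM with NanogBiD and at 4.23 and 6.86 FPKM with native Nanog by D12, where the libraries overlapped and the difference of 0.60 ± 0.55 (SE) was not called.

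Sh3gl2, which encodes the endocytic protein endophilin A1 and was chosen after its values were seen, had the largest positive difference of the 100 genes at D3. It was listed at 0 in both NanogBiD libraries of D0, had 2.00 and 1.14 FPKM at D1 and 17.1 and 19.3 FPKM at D3, close to the mES level of 17.6 FPKM. With native Nanog it stood at 0.120 and 0.0927 FPKM at D1 and at 0.778 and 0.694 FPKM at D3. The difference was 1.197 ± 0.24 (SE) at D1 and 3.47 ± 0.24 at D3 (limma adjusted p = 0.0070 and 1.4e-08). The call at D1 was lost without the first NanogBiD library or the second NanogWT library of that day, and in the fit to the 4 libraries of D1 alone.

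**Figure D4:**
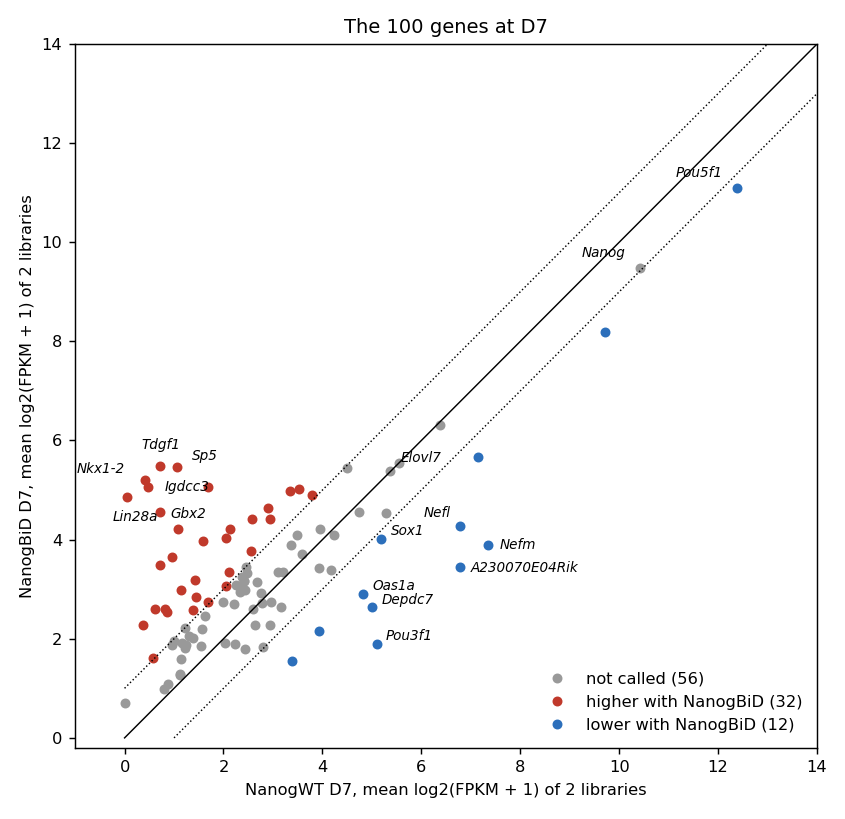
Level of each of the 100 genes at D7, mean log2(FPKM + 1) of 2 libraries, with NanogWT on the horizontal and NanogBiD on the vertical axis. The solid line marks equal levels, the dotted lines a difference of 1, red the 32 genes higher with NanogBiD, blue the 12 lower and grey the 56 not called. Tdgf1, Lin28a, Gbx2, Nkx1-2, Igdcc3 and Sp5 lie near 0 on the horizontal axis, and Nefm, Pou3f1 and Depdc7 lie below the lines.

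The other genes described here from the list of pluripotency transcription factors split by timing. Tfcp2l1, a factor of the naive stem cell state, rose in both combinations and stayed below mES (107 FPKM). It stood at 30.5 and 27.1 FPKM with NanogBiD and 12.9 and 12.8 FPKM with native Nanog at D7, a difference of 1.10 ± 0.19 (SE, limma adjusted p = 0.00022). Pou2f3, a POU factor, had 13.3 and 10.1 FPKM with NanogBiD and 1.197 and 0.739 FPKM with native Nanog at D7. It fell to 2.51 and 1.64 FPKM by D12 with NanogBiD, below the mES level of 7.67 FPKM, a change of −2.04 ± 0.21 (SE, limma adjusted p = 1.5e-07).

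Sox3, a SoxB1 factor, did not differ at D7, with 5.81 and 5.51 FPKM with NanogBiD and 8.68 and 5.32 FPKM with native Nanog (difference −0.23 ± 0.51, SE, limma adjusted p = 0.80). After D7 the 2 combinations parted. By D12 Sox3 had 28.1 and 23.8 FPKM with NanogBiD and 8.78 and 3.75 FPKM with native Nanog, a difference of 1.98 ± 0.51 (SE, limma adjusted p = 0.0033), with mES at 7.40 FPKM. Upp1, uridine phosphorylase, had a similar shape, with 15.2 and 20.5 against 15.6 and 13.4 FPKM at D7 and 63.0 and 38.1 against 3.51 and 8.71 FPKM at D12 (difference 2.92 ± 0.30, SE, limma adjusted p = 1.3e-07).

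For the vector genes, the Pou5f1 values were 1690 to 3200 FPKM at D0 and 1804 to 6550 FPKM at D7 over both combinations, against 877 FPKM in mES, and Nanog stood at 450 to 684 FPKM at D0 and at 712 to 1528 FPKM at D7, against 365 FPKM in mES. Pou5f1 was 1.27 ± 0.36 (SE) lower with NanogBiD at D7 (limma adjusted p = 0.012), where the NanogBiD libraries had 2683 and 1804 FPKM and the NanogWT libraries 6550 and 4321 FPKM. Nanog was 0.92 ± 0.20 (SE) lower at D7 and was not called, with 712 and 723 FPKM against 1215 and 1528 FPKM. At D0 neither gene was called, with differences of −0.15 ± 0.36 for Pou5f1 and 0.49 ± 0.20 for Nanog.

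The epithelial genes among the 100 were higher with NanogBiD. Dsp, the desmosomal plaque protein desmoplakin, had 21.3 and 14.3 FPKM at D7 with NanogBiD and 3.66 and 3.08 FPKM with native Nanog (difference 2.08 ± 0.28, SE, limma adjusted p = 1.4e-05). Cldn3, a tight junction claudin, had 9.99 and 6.57 against 2.40 and 1.11 FPKM (1.77 ± 0.33, SE, limma adjusted p = 0.00044). Dsg2, a desmosomal cadherin, had 9.83 and 9.92 against 3.74 and 5.30 FPKM, a difference of 0.99 that lay just under the fold threshold, and it was called at D10 and D12. On the whole epithelial list, 18 of 38 genes tested were higher with NanogBiD at D7 (5.79% of all genes) and 0 lower (4.65%).

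Of the metabolic genes, Aqp3 was called at D7, with 4.90 and 4.71 FPKM with NanogBiD and 0.824 and 0.796 FPKM with native Nanog (difference 1.68 ± 0.33, SE, limma adjusted p = 0.00073). Gldc, the glycine cleavage enzyme, Slc29a4, a transporter of monoamines and nucleosides, and Upp1 were not called at D7 and were higher with NanogBiD at D12, by 1.84, 1.35 and 2.92 on the log2 scale. On the whole metabolic list 8 of 31 genes tested were higher at D7 (5.79% of all genes) and 22 of 31 at D12 (13.5%), with 0 lower at either day (4.65% and 9.97% of all genes).

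A second set of the early-reached genes was higher with native Nanog. Pou3f1, the POU factor Oct6 of the epiblast and of neural precursors, had 37.9 and 29.2 FPKM with native Nanog and 3.95 and 1.82 FPKM with NanogBiD at D7, with mES at 5.65 FPKM. The groups did not overlap, and the difference was −3.20 ± 0.43 (SE, limma adjusted p = 1.4e-05). It was −2.07 ± 0.43 at D3 and −1.80 ± 0.43 at D12 (limma adjusted p = 0.0032 and 0.0016). Pou3f1 thus stayed well above its mES level with native Nanog, at 30.9 and 20.1 FPKM at D12.

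The largest of these differences were at the neurofilament locus, where Nefm, Nefl and the overlapping A230070E04Rik may share reads and count as 1 observation. Nefm, the medium neurofilament chain, had 23.9 and 13.5 FPKM with native Nanog and 0.972 and 0.911 FPKM with NanogBiD at D0, and 186 and 142 against 20.9 and 9.03 FPKM at D7. The mES level was 9.10 FPKM and the MEF libraries had 0.528 and 0.555 FPKM, so the difference was present on the day that infection ended. It was −3.29 ± 0.39 (SE) at D0 and −3.47 ± 0.39 at D7 (limma adjusted p = 0.00015 and 1.9e-06). Nefl differed by −2.51 ± 0.34 and A230070E04Rik by −3.32 ± 0.36 at D7.

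Depdc7 and Oas1a were higher with native Nanog at D7 and were not called at D12. Depdc7 had 30.4 and 32.0 FPKM with native Nanog and 4.72 and 5.71 FPKM with NanogBiD at D7 (difference −2.38 ± 0.21, SE, limma adjusted p = 8.3e-08), and 6.33 and 4.74 against 4.29 and 3.55 FPKM at D12. Oas1a, an interferon-induced oligoadenylate synthetase, had 24.3 and 30.7 against 8.00 and 5.23 FPKM at D7 (−1.92 ± 0.40, SE, limma adjusted p = 0.0011), with mES at 11.3 FPKM. By D12 Oas1a was at 3.04 and 3.46 FPKM with native Nanog and at 9.24 and 4.41 FPKM with NanogBiD. On the interferon and inflammation list as a whole, 13 of 21 genes tested were lower with NanogBiD at D7 (4.65% of all genes) and 0 higher (5.79%), while 0 of 10 macrophage markers tested were called, and their summed FPKM was 5.38 to 12.3 in the D7 libraries of both combinations. Whether the interferon genes had a part in the Oas1a level was not tested.

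Other genes of the group passed their mES level in both combinations and were not called between them at D7. Elovl7, first in the ranking, had 38.7 and 42.5 FPKM with NanogBiD and 38.0 and 42.4 FPKM with native Nanog at D7, against 5.15 FPKM in mES. The difference was 0.01 ± 0.21 (SE, limma adjusted p = 0.98), and in both combinations the level fell after D7, to 2.69 and 3.43 FPKM with NanogBiD and 6.45 and 7.62 FPKM with native Nanog at D12. Chd7, a chromatin remodeler, stood at 14.2 and 10.4 against 11.4 and 10.5 FPKM at D7, with mES at 6.31 FPKM (difference 0.14 ± 0.22, SE, limma adjusted p = 0.70). Urah, an enzyme of urate breakdown, had 29.4 and 17.4 against 38.1 and 17.1 FPKM, and 1700019D03Rik 13.7 and 18.7 against 15.2 and 20.8 FPKM. For these genes the libraries of the 2 combinations overlapped at D7.

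Of the other genes near the top of the ranking, Pcsk1n, an inhibitor of a prohormone convertase, had 30.5 and 30.9 FPKM with NanogBiD and 8.58 and 9.92 FPKM with native Nanog at D7 (difference 1.63 ± 0.30, SE, limma adjusted p = 0.00043). By D12 it had 35.4 and 35.8 against 32.7 and 21.4 FPKM and was not called. Car2, a carbonic anhydrase, was at 5.53 to 17.6 FPKM in the 4 libraries of D0, at or above its mES level of 5.92 FPKM in 3 of them, while the MEF libraries had 0.801 and 0.170 FPKM. It was higher with NanogBiD at D7, with 28.2 and 35.1 against 12.0 and 9.12 FPKM (1.50 ± 0.41, SE, limma adjusted p = 0.0088). Smagp, a small membrane protein of cell contacts, and Ptpn3, a tyrosine phosphatase, were higher with NanogBiD at D7 by 1.49 and 1.22 on the log2 scale.

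Sox1, a SoxB1 factor of neural precursors, changed sides. At D7 it had 17.8 and 12.97 FPKM with NanogBiD and 41.4 and 30.6 FPKM with native Nanog (difference −1.17 ± 0.35, SE, limma adjusted p = 0.017), with mES at 7.61 FPKM. At D10 it had 30.3 and 39.3 against 12.4 and 18.7 FPKM (1.13 ± 0.35, SE, limma adjusted p = 0.011), and at D12 the libraries overlapped. Among the neural and patterning genes as a list, 5 of 30 tested were higher with NanogBiD at D7 (5.79% of all genes) and 2 lower (4.65% of all genes), and the share of the lower ones was near that of all genes.

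**Figure D5:**
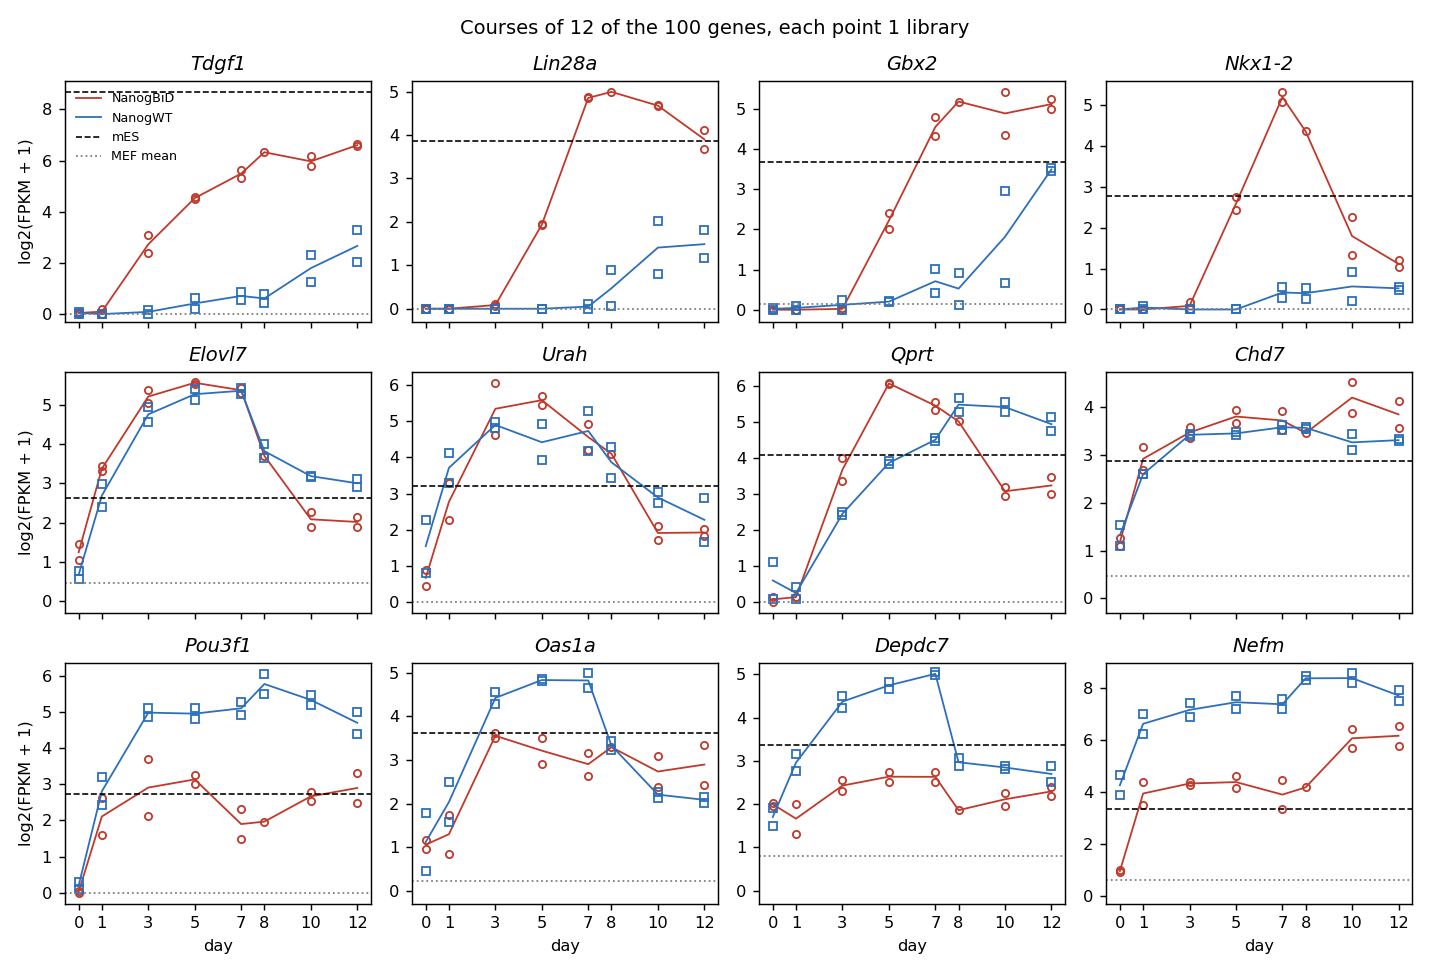
Level of 12 of the 100 genes, log2(FPKM + 1), against the day after infection. Each open point is 1 library (red circles NanogBiD, blue squares NanogWT), lines join the means, the dashed line is the mES level and the dotted line the MEF mean. The top row shows genes higher with NanogBiD at D7, the middle row genes that rose in both, and the bottom row genes higher with native Nanog at D7.

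The promoter sequences of 8 of these genes are shown so that start sites of genes on either side at D7 can be compared. They are those of the 6 genes with the largest positive difference at D7 and of Depdc7 and Oas1a, the 2 with a window among the 6 genes with the most negative difference. Each is the window from 250 bases before to 50 bases after a transcript start in RefSeq on GRCm38.p6, read 5′ to 3′ on the strand of the gene. Capitals mark a match to CACGTG, an E-box, on either strand, and ATGCAAA, part of the octamer that POU factors such as Oct4 bind, would be marked the same way but was in none of the 8. An E-box was in the windows of Nkx1-2 (chr7:132599588-132599887, minus strand), Gbx2 (chr1:89931127-89931426, minus strand) and Depdc7 (chr2:104742808-104743107, minus strand), and not in those of Lin28a (chr4:134018767-134019066, minus strand), Tdgf1 (chr9:110946109-110946408, minus strand), Igdcc3 (chr9:65140904-65141203, plus strand), Sp5 (chr2:70474673-70474972, plus strand) and Oas1a (chr5:120907476-120907775, minus strand).
Lin28a: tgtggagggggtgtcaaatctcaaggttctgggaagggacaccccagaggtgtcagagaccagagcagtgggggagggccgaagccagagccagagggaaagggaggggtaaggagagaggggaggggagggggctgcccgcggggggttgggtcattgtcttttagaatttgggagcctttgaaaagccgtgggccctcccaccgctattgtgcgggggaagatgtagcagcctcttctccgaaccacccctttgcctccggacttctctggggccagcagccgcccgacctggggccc
Tdgf1: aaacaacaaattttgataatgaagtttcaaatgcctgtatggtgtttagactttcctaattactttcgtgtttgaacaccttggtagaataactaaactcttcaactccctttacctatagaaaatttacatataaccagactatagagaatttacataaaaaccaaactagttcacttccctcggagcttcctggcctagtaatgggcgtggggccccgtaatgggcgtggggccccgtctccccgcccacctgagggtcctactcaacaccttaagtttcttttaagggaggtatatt
Nkx1-2: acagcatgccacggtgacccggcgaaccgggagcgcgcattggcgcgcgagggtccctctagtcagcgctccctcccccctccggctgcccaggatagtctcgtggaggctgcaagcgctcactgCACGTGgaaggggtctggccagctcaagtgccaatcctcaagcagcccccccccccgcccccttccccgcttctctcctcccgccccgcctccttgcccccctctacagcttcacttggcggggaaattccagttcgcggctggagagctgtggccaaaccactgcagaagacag
Igdcc3: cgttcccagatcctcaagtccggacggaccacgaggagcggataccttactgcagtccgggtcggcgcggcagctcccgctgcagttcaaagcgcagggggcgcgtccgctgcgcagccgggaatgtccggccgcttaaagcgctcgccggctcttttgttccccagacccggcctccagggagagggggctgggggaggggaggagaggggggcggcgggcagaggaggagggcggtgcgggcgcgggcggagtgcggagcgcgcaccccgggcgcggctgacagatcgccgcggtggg
Sp5: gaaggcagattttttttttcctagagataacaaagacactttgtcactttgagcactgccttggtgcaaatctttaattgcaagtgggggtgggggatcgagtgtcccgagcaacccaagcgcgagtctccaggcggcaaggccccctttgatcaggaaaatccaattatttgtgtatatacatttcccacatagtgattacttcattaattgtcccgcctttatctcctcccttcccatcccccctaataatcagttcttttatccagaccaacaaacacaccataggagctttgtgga
Gbx2: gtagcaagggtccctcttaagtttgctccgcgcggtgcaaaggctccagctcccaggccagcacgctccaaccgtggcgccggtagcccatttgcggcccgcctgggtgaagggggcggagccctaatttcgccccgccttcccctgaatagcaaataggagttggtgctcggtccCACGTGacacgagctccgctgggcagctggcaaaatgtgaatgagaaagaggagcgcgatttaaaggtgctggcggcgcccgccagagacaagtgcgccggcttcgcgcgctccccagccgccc
Depdc7: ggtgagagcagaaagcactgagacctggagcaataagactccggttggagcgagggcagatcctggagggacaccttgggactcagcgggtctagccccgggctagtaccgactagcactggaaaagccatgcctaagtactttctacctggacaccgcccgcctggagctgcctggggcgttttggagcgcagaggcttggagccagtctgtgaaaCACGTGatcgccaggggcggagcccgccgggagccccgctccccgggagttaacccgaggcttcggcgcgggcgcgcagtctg
Oas1a: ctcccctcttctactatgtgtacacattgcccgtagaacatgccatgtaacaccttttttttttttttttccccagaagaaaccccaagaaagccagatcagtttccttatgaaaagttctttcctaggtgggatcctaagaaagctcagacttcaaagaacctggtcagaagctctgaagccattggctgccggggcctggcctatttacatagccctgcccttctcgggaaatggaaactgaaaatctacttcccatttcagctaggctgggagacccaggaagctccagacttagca

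Over all the early-reached genes, 75 of 97 matched genes had a window, with 100 windows in all, and 27 of the 32 genes higher with NanogBiD at D7 had one, with 30 windows. The octamer part was in 11 of the 100 windows (11%), all 11 of them among the 70 windows of the genes not higher at D7 (15.7%) and 0 among the 30, against 4.63% of all 32851 RefSeq windows of this length and 5.11% of those of the other candidates. The E-box was in 9 of the 100 and 3 of the 30, against 7.15% of all windows. The median ratio of observed to expected CpG was 0.571 over the 100 windows, 0.684 over the 30 and 0.525 over the 70, against 0.466 for the other candidates and 0.384 over all windows. Other 7-letter motifs searched on both strands were ACAATGG (Sox), CACACCC (Klf) and AAGGTCA (Esrrb), found in 2, 12 and 2 of the 100 windows, in 0, 2 and 1 of the 30 and in 3.66%, 7.95% and 4.72% of all windows. Since fewer than 80% of the matched genes had a window, the comparison of the whole set with all windows is void, and the shares are given as a description with no test. A match is only a match of letters, and enhancers were not examined.

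After D7 the course of the early-reached genes split again. From D7 to D12, 22 of the 100 rose with NanogBiD (11.6% of all genes tested rose) and 17 fell (8.37% of all genes), and with native Nanog 11 rose (6.66% of all genes) and 18 fell (4.62%). Which direction was more frequent with NanogBiD depended on the scaling, since 20 rose and 22 fell with quantile normalization. The median change over the 100 was 0.18 with NanogBiD and −0.05 with native Nanog on the log2 scale, while among the other candidates it was 1.68 and 0.48, and 279 of 363 rose with NanogBiD. Since the D5 level with NanogBiD split the candidates, genes already high at D5 are set against genes still low then. Part of the falls and of this contrast is thus set by that choice. The rises with native Nanog were 7 when its second D7 library was left out.

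The 5 largest rises with NanogBiD were those of Dpysl5, Nefm, Aqp3, A230070E04Rik and Sox3. Dpysl5, a collapsin response mediator of growing neurons, went from 5.40 and 4.67 FPKM at D7 to 36.8 and 55.0 FPKM at D12, a change of 2.93 ± 0.31 (SE, limma adjusted p = 2.3e-07), with mES at 5.19 FPKM. With native Nanog it also rose, from 0.850 and 0.656 to 23.5 and 22.6 FPKM (3.78 ± 0.31, SE, limma adjusted p = 2.4e-08). Aqp3 went from 4.90 and 4.71 to 27.8 and 24.6 FPKM with NanogBiD, with mES at 90.4 FPKM, and had 0.705 and 3.32 FPKM with native Nanog at D12.

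The 5 largest falls were those of Nkx1-2, Elovl7, Tafa4, Urah and Qprt. Tafa4, a secreted chemokine-like protein, went from 9.20 and 8.77 FPKM to 0.244 and 0.757 FPKM with NanogBiD (−2.75 ± 0.25, SE, limma adjusted p = 2.7e-08) and from 4.02 and 5.17 to 0.489 and 0.816 FPKM with native Nanog (−1.76 ± 0.25, SE, limma adjusted p = 1.9e-05). Qprt, an enzyme of NAD synthesis, fell with NanogBiD from 45.9 and 39.3 to 10.1 and 6.96 FPKM, below its mES level of 15.8 FPKM. With native Nanog it was at 22.2 and 21.0 FPKM at D7 and at 33.7 and 25.7 FPKM at D12, so Qprt was lower with NanogBiD at D12 by 1.70 ± 0.26 (SE, limma adjusted p = 2.5e-05).

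The change from D7 to D12 itself differed between the combinations for 36 of the 100 genes. It was higher with NanogBiD for 22 (6.78% of all genes tested) and lower for 14 (7.33% of all genes), and the 14 became 9 without any of the second NanogBiD library of D7, the first NanogBiD library of D12 or the second NanogWT library of D7. Kit, a receptor tyrosine kinase named after its values were seen, went from 8.61 and 10.4 to 41.2 and 32.6 FPKM with NanogBiD and from 17.2 and 17.0 to 5.62 and 7.92 FPKM with native Nanog. The difference of the changes was 3.09 ± 0.29 (SE, limma adjusted p = 4.1e-07), the largest of the 100, and the mES level was 46.0 FPKM. For Upp1 it was 2.65 ± 0.42 and for Oas1a 2.73 ± 0.56 (limma adjusted p = 0.00011 and 0.0014). At the other end, it was −4.18 ± 0.33 for Nkx1-2 and −3.79 ± 0.78 for Sp5 (limma adjusted p = 4.5e-08 and 0.0014). Nkx1-2 passed the filter for testing only through NanogBiD libraries, those of D5 among them, so its test is not independent of the choice of the genes. Lin28a and Gbx2 were among the 14 as well, at −2.39 ± 0.41 and −2.22 ± 0.66 (limma adjusted p = 0.00025 and 0.019), and both rose with native Nanog from D7 to D12, by 1.44 and 2.79.

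The iPSC lines were not used to choose the genes. In a separate table of transcript FPKM, summed per gene here, 89 of the 100 genes had a share, and its mean over the 12 iPSC libraries was at least 0.5 of the mES value of that table for 84 of them, at least 1 for 23 and between 0.8 and 1.2 for 44 of the 89. At D12 of the time course, 43 of the 100 were between 0.8 and 1.2 with NanogBiD and 22 with native Nanog. The 5 genes under 0.5 in the iPSC lines were Pou2f3, Ankrd37, 2010107G23Rik, Mgarp and Sema4g, with Pou2f3 at 0.254. The median share per library was 0.769 to 0.907 in the 6 NanogBiD libraries and 0.820 to 0.918 in the 6 NanogWT libraries, which overlapped.

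Between iPSC lines of the 2 combinations, limma with the number of the line (1 or 2) as a covariate called 0 of 12456 genes (0%), and 201 had an unadjusted p under 0.05. Of the 100 genes 90 were tested, 0 were called and 3 had an unadjusted p under 0.05. Lines of the 2 combinations share that number and are not the same line. By their labels, the first lines were at a later passage than the second lines in both combinations. The covariate therefore cannot be told apart from passage. Without the covariate and with the 4 lines as groups of their own, settings chosen after seeing the data, 0 genes were called as well, and 149 and 196 had an unadjusted p under 0.05, 2 of the 100 genes each time. The NanogWT libraries labelled 1# and 1#-2 of the first line may come from 1 culture, at different passages by their labels, and 0 of the 100 genes were called without the latter. Tdgf1 had a lowest, median and highest level of 160, 231 and 240 FPKM in the NanogBiD iPSC libraries and 209, 255 and 434 FPKM in the NanogWT ones, with a difference of −0.29 ± 0.17 (SE, limma adjusted p = 0.999). Nkx1-2 spanned 0.413 to 6.71 FPKM in the NanogBiD and 0.401 to 8.11 FPKM in the NanogWT iPSC libraries. For both genes, which had separated the combinations at D7, the libraries of the iPSC lines overlapped.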

How the data were processed

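RNA was sequenced from NanogBiD and NanogWT cells at D0 to D12, from MEF, mES and iPSC lines. Per the submitters' processing notes, reads were trimmed with Trim Galore 0.6.4, aligned with HISAT2 2.2.1 to mm10 and quantified with StringTie 2.2.1. The authors deposited FPKM values, per gene for the time course and per transcript for the iPSC lines, without read counts, so no interval for counting error could be given. StringTie estimates are not whole reads, and a gene listed at 0 may be a failed estimate.

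Differences were tested with limma 3.58.1 in R 4.3.3 on log2(FPKM + 1), in 1 fit of 31 time-course libraries in 16 groups (combination by day), with a mean-variance trend, for 16842 genes with an FPKM of at least 1 in at least 2 libraries. P-values were adjusted by Benjamini-Hochberg over all genes tested, and a gene was called when its adjusted p was under 0.05 and its difference at least 1 on the log2 scale. The iPSC libraries were fitted separately with the line number as a covariate. The 100 genes, the gene lists and the named genes were chosen with earlier results of these data known. The named genes were the 15 highest in the ranking, every one of the 100 in the 3 pluripotency lists, the 6 largest calls in each direction at D7, the 5 largest rises and falls from D7 to D12 with NanogBiD, and the 3 genes on either side of the boundary. Nothing says that the libraries of a group came from separate cultures, so the p-values measure only the spread between these libraries, which may be technical. Replicates of a group correlated at r = 0.979 to 0.995 across genes, which are not independent replicates. The pipeline was tested on simulated data. Alternatives were another pseudocount, no filter, quantile normalization, values rescaled to sum alike in each library (TPM), a fit to the compared groups alone, no fold limit, a replicate block, each library left out in turn and, chosen after seeing the data, the names of uncertain identity left out and, for the iPSC lines, no line term or 4 separate lines. Of the 100 genes, 2 are counted but not reported here by name. Promoter windows came from RefSeq. Figures were drawn with Python 3.11.15 and matplotlib 3.10.9.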

Additional observations from a re-analysis of the deposited data

Results flagged for a closer look

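The change from D7 to D12 differed between NanogBiD and NanogWT for a part of the early-reached genes, by a limma interaction term with an adjusted p under 0.05 and a difference of at least 1 on the log2 scale. It was higher with NanogBiD for 22 genes (6.78% of all genes tested) and lower for 14 (7.33%), and the 14 became 9 when the second NanogBiD library of D7, the first NanogBiD library of D12 or the second NanogWT library of D7 was left out. Kit, Upp1 and Oas1a were in the first set, and Nkx1-2, Sp5, Lin28a and Gbx2 in the second. Of these, Nkx1-2 passed the filter for testing only through NanogBiD libraries. The genes were chosen by their D5 level with NanogBiD, which can set part of these counts. The medium changed after D7 in both combinations and the NanogWT libraries of D12 were deeper than those of D7, and the part of either was not tested.

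In the 4 libraries of the first NanogWT iPSC line, Pou5f1 was at 376 FPKM (375.694) in replicate 2, apart from the next library at 334 FPKM and the lowest at 329 FPKM. It was the only gap of this size among 30 values checked in that line, and chance gives such a gap in about 1 of 20.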

How the results depend on the processing

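Of the counts given for the 100 genes, those of D7, D10 and D12 that were higher with NanogBiD stayed within 1.5 times of their values under every alternative, except for 52 higher at D7 with no fold limit. The early counts depended on the setting. A pseudocount of 0.1 gave 5 genes higher at D0 and 7 at D1, and a common total (TPM) gave 2 and 5. With the fit limited to the groups compared, 0 were called in both directions at D0, D1 and D3, where 10, 17 and 24 were higher and 13, 11 and 15 lower at an unadjusted p under 0.05, and 0 lower from D0 to D5 with NanogWT. Without a fold limit 28 fell from D7 to D12 with NanogBiD and 28 with NanogWT. Without the 14 names of uncertain identity, the lower counts were 1 at D0, 2 at D1, 7 at D7, 6 at D10 and 4 at D12. Where a cause is not plain from the setting, it was not tested.

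With each library left out in turn, the higher and lower counts between NanogBiD and NanogWT ranged from 0 to 1 and 3 to 4 at D0, 0 to 3 and 3 to 5 at D1, 7 to 22 and 9 to 11 at D3, 31 to 35 and 9 to 14 at D7, 42 to 48 and 9 to 12 at D10 and 44 to 52 and 6 to 9 at D12. From D0 with NanogWT they ranged from 51 to 58 and 1 to 1 at D5 and 59 to 63 and 1 to 1 at D7. With NanogBiD they ranged from 58 to 67 and 0 to 1 from D0 to D3 and 20 to 24 and 15 to 21 from D7 to D12. With NanogWT from D7 to D12 they were 7 to 9 and 14 to 20, and for the difference of these changes 15 to 22 and 9 to 13. The lowest counts came without the second NanogBiD library at D0, without the first NanogBiD or the second NanogWT library at D1 (0 higher) or the second NanogBiD library (3 lower), and without the first NanogBiD library at D3.

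With replicate number as a block, no count moved by more than 1 (for example 59 rather than 58 genes rose from D0 to D5 with NanogWT). Same-numbered libraries did not deviate together on every day (correlation of −0.065 at D3 to 0.394 at D7), so the numbers do not pair the libraries. With quantile normalization 20 rose and 22 fell from D7 to D12 with NanogBiD, in place of 22 and 17, and the median change of all genes turned from 0.08 to −0.01 in that comparison and from 0.12 to −0.01 from D0 to D3. The median change of all genes from D0 to D7 with NanogWT was 0.12, 0.24 with TPM and −0.05 with quantile normalization. Which genes were chosen depended on the mES cutoff. When candidates had to reach at least 10 FPKM in mES, only 43 of the 100 were kept. Other ways to compute the ranking kept 93 to 98 of the 100. Depth is unknown, so a gene listed at 0 was not detectable here rather than absent.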
